A study of Mus musculus with 15 samples.

Results

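The genes described here encode calcineurin, its Rcan inhibitors and the NFAT factors it acts on. They are 10 of the 13657 genes of the deposited table, chosen by symbol: Rcan1, Rcan2, Rcan3, Ppp3ca, Ppp3cb, Ppp3r1, Nfatc1, Nfatc2, Nfatc3 and Nfatc4. All 10 passed the filter on low values. Their transcripts were read by poly(A) RNA sequencing in 15 cultures of neonatal cardiac myocytes of C57BL/6 mice, attached to PDMS, an elastic silicone. The groups, of 3 stretch devices each, were longitudinal stretch for 4 h, transverse stretch for 4 h, longitudinal stretch for 30 min, transverse stretch for 30 min, and a non-stretched control. Stretch was static and biaxial, 14% along the named primary axis and 3.6% along the other, so both axes of every stretched culture were loaded. The 3 devices of a group, A, B and C, are described by the submitters as biological replicates, and no source used here says whether they came from separate litters.

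Calcineurin is a phosphatase that calcium and calmodulin switch on. It is made of a catalytic A subunit and a regulatory, calcium-binding B subunit, and it removes phosphates from NFAT factors, which then enter the nucleus. In mouse cardiac myocytes this pathway is known for driving hypertrophic growth, and Rcan1 is both a calcineurin inhibitor and a gene that NFAT switches on, which makes a feedback loop.

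Rcan1 has 1 promoter at its first exon and another inside the gene, before a later exon. The inner one drives the short form known as Rcan1.4 and is the one known to respond to NFAT. Both are shown because Rcan1 was the member with the largest differences between libraries, and the measured values do not separate the forms. The windows are the 250 bases before each start in RefSeq (GRCm38.p6, minus strand), with the NFAT core GGAAA and the AP-1 site TGANTCA, each searched on both strands, in capitals.

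Rcan1, first start, chr16:92466170-92466419: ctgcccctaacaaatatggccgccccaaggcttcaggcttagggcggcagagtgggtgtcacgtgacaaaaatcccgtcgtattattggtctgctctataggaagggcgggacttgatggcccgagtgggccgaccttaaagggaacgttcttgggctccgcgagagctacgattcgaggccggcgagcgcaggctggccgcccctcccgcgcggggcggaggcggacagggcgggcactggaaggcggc

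Rcan1, inner start, chr16:92400079-92400328: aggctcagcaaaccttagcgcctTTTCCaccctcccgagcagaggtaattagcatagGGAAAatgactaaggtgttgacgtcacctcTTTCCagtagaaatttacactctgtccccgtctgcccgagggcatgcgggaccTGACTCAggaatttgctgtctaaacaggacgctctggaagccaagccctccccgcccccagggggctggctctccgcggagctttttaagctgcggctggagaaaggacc

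The window at the first start held neither motif. The inner window held 3 NFAT cores, which begin 227, 193 and 163 bases before the start, and 1 AP-1 site, which begins 110 bases before it, with no overlap between them. Of 32851 promoter windows of the same length, 55.6% held at least 1 NFAT core, 6.39% held at least 3, and 6.75% held an AP-1 site. Windows of Ppp3cb, Nfatc2 and Nfatc4 also held 3 NFAT cores, and a window of Rcan2 held an AP-1 site. A motif match is a description of the letters and not a measured site of binding.

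Levels are FPKM, fragment numbers scaled by transcript length and by the mapped fragments of the library, which can be set side by side between genes. Cardiac myocyte markers summed to between 12808 and 17661 FPKM in every library, and fibroblast markers to between 2022 and 2719 FPKM, so the cultures were not of myocytes alone. Endothelial markers summed to 22.1 to 45.8 FPKM and leukocyte markers to 66.2 to 91.3 FPKM. Of 4 erythroid markers looked up, 0 were matched to the table. At longitudinal 4 h against control, 2 of 7 endothelial markers tested were called, where 20.7% of all genes tested were called. Flt1, a VEGF receptor, rose by 0.62 and Tek, an angiopoietin receptor, fell by 0.42 on the log2 scale (limma adjusted p 0.0159 and 0.0438). The endothelial sums of those groups overlapped, at 32.9 to 37.0 FPKM in longitudinal 4 h and 27.2 to 45.8 FPKM in control cultures. The part of these cells in the calls at longitudinal 4 h was not tested. Relative sequencing depth ran from 0.671 to 1. In bulk cultures, fewer cells of a type and less RNA per cell cannot be told apart. The libraries transverse 30 min B and longitudinal 30 min C stood apart from others of their groups: they had the highest scores, 0.58 and 0.33, on the first component of the within-group deviations of all genes tested, and transverse 30 min C had the lowest, -0.43. The 3 scores are a description of all genes. Results on Rcan1 that rest on these libraries are also given, further below, as ranges over fits without 1 library.

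Rcan1 was higher after longitudinal stretch, but the spread between devices was wide and the difference did not pass the test. Rcan1 (chromosome 16, 92392198 to 92466391, mm9) had 158, 147 and 224 FPKM in longitudinal 4 h cultures and 72.3, 105 and 44.7 FPKM in transverse 4 h cultures. It had 91.2, 64.5 and 231 FPKM in longitudinal 30 min cultures, 54.0, 291 and 37.1 FPKM in transverse 30 min cultures, and 50.6, 36.6 and 52.9 FPKM in control cultures. Every longitudinal culture, at 4 h and at 30 min, lay above every control culture, and every longitudinal 4 h culture lay above every transverse 4 h culture. The transverse groups overlapped the control, and the transverse 30 min mean was set by device B. Group means were 176 ± 41.6 FPKM for longitudinal 4 h, 73.9 ± 30.1 FPKM for transverse 4 h, 129 ± 89.6 FPKM for longitudinal 30 min, 127 ± 142 FPKM for transverse 30 min and 46.7 ± 8.83 FPKM for control (SD, n = 3 each). From the highest mean to the lowest the order was longitudinal 4 h, longitudinal 30 min, transverse 30 min, transverse 4 h and control, and no neighbours in that order differed beyond their spread.

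On the log2(FPKM + 1) scale, longitudinal 4 h cultures exceeded control by 1.89 ± 0.67 (SE), with a 95% interval of 0.41 to 3.36 and a limma adjusted p of 0.0658. Longitudinal 30 min cultures exceeded control by 1.25 ± 0.67, with an interval of -0.23 to 2.72 and an adjusted p of 0.590. The transverse differences were 0.59 at 4 h and 0.85 at 30 min, with adjusted p of 0.817 and 1. Longitudinal minus transverse was 1.30 at 4 h, with an interval of -0.17 to 2.78 and an adjusted p of 0.236. At 30 min it was 0.40, with an adjusted p of 0.888. The 4 h minus 30 min difference was 0.64 for longitudinal stretch, with an adjusted p of 0.592, and -0.26 for transverse stretch, with an adjusted p of 0.910. The interaction of axis and duration was 0.90, with an interval of -1.18 to 2.99 and an adjusted p of 0.872. Rcan1 was thus called in none of the 9 comparisons. The two-sided exact permutation test on Rcan1 alone gave p = 0.1 for longitudinal 4 h against control, for longitudinal 30 min against control and for longitudinal against transverse at 4 h, which is the smallest p that 3 against 3 can give.

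Whether Rcan1 was called at longitudinal 4 h depended on which libraries set the spread. Its within-group SD was 0.88 on the log2 scale, at the 99.2nd percentile of the genes tested, whose median was 0.11. Without transverse 30 min B the adjusted p was 0.0116, and without transverse 30 min C it was 0.0482. Fitting only the longitudinal 4 h and control libraries gave 0.0104. These were 3 of the 22 settings listed with the design, over which the adjusted p ran from 0.0104 to 0.177. Of 3 settings added after the values were seen, all 3 passed: 0.00335 without transverse 30 min B and longitudinal 30 min C, which were already known to be high in Rcan1, 0.0161 without transverse 30 min B and C, the 2 largest scores of either sign, and 0.0015 with library quality weights, whose estimate stopped before it converged and gave weights from 0.234 to 14.9. Without transverse 30 min B the transverse 30 min difference turned to -0.04. The authors' deposited table, for whose test no source used here gives a name, lists a q-value of 8.27e-13 for Rcan1 at longitudinal 4 h, 2.08e-06 at longitudinal 30 min, 0.0985 at transverse 4 h and 0.141 at transverse 30 min.

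The libraries with the highest Rcan1 also shared other features. Transverse 30 min B, longitudinal 30 min C and longitudinal 4 h C had the 3 highest Rcan1 levels and the 3 lowest relative depths, 0.671, 0.828 and 0.777. Summed over all genes, their FPKM were the 3 highest, at 482618, 489685 and 500576, against 413673 to 471636 in all others. The same libraries had the 3 highest levels of the smooth muscle gene Cnn1, at 299, 261 and 168 FPKM, against 19.7 to 128 FPKM in all others. They also had the 3 highest of Cspg4, at 32.4, 31.7 and 41.2 FPKM. Pdgfrb was highest in control A, at 39.8 FPKM, and next highest in the same 3 libraries, at 37.5, 36.6 and 39.5 FPKM. Each of these was the highest of its group. The marker Rgs5 did not follow, with its highest level, 5.94 FPKM, in control A. Rgs5 was at 2.44 FPKM in transverse 30 min B, the lowest of its group. In the sums that follow, Cnn1 was the largest part in those 3 libraries. The summed smooth muscle and pericyte markers reached 133 to 254 FPKM in longitudinal 4 h, 68.9 to 151 FPKM in transverse 4 h, 137 to 334 FPKM in longitudinal 30 min, 106 to 372 FPKM in transverse 30 min and 99.98 to 178 FPKM in control cultures. None of the 5 markers was called in any stretch group against control. Myh11, the defining smooth muscle myosin, was at 0.294 to 1.90 FPKM over all libraries. Transverse 30 min B, longitudinal 30 min C and longitudinal 4 h C were the highest of their groups, at 1.04, 0.990 and 1.90 FPKM. Transverse 4 h cultures reached 1.26 FPKM. The part of depth, of the summed FPKM and of smooth muscle or pericyte cells in the Rcan1 values was not tested.

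**Figure D1:**
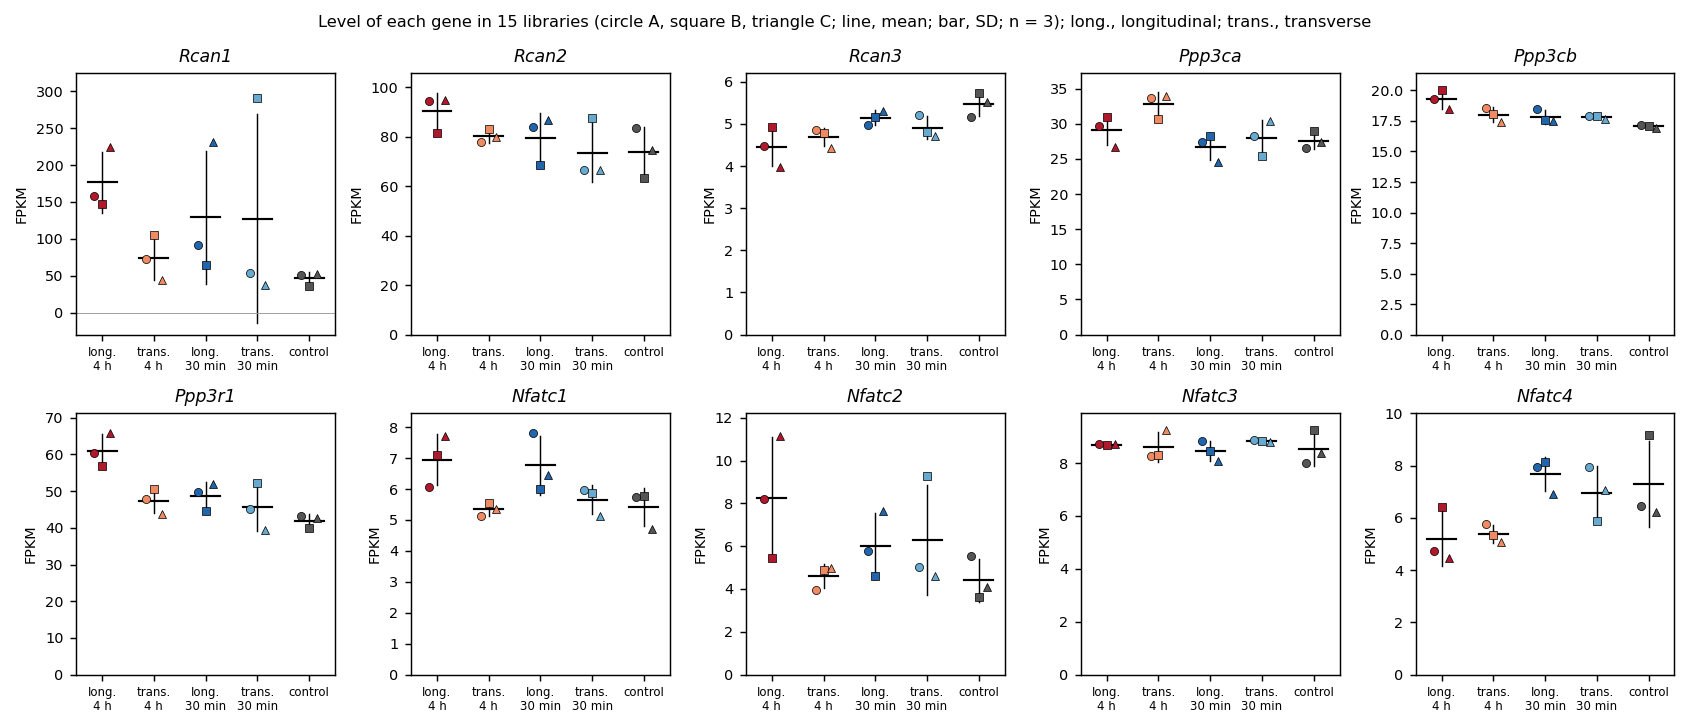
FPKM of each of the 10 genes (vertical axes, each from its own scale) in the 5 groups (horizontal axes), with 1 point per library, a line at the mean and a bar for the SD of 3 libraries. Rcan1 was highest in transverse 30 min B at 291 FPKM, and its 3 longitudinal 4 h libraries, from 147 to 224 FPKM, all lay above the 3 control libraries.

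Rcan2 and Rcan3, the other calcineurin inhibitors of the family, differed far less. Rcan2 (chromosome 17, 43938800 to 44176465) had 94.4, 81.3 and 94.8 FPKM in longitudinal 4 h cultures, against 83.6, 63.4 and 74.6 FPKM in control cultures. The groups overlapped, and the log2 difference of 0.29 ± 0.13 had an adjusted p of 0.117. Rcan3 (chromosome 4, 134968224 to 134989720) had 4.49, 4.92 and 3.98 FPKM in longitudinal 4 h cultures, against 5.17, 5.73 and 5.53 FPKM in control cultures. It fell there, with no overlap, by 0.25 ± 0.07 on the log2 scale (limma adjusted p 0.0247), and the call was lost without 4 of the 15 libraries in turn: control B or C, or longitudinal 4 h A or C, with adjusted p up to 0.0961. In transverse 4 h cultures Rcan3 had 4.85, 4.78 and 4.44 FPKM, also below every control culture, with a log2 difference of -0.19 and an adjusted p of 0.389.

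The make-up of the Rcan pool therefore differed between libraries mainly through Rcan1. Rcan1 was 61.6%, 63.0% and 69.4% of the summed Rcan1, Rcan2 and Rcan3 FPKM in longitudinal 4 h cultures and 46.7%, 54.3% and 34.7% in transverse 4 h cultures. It was 50.7%, 46.7% and 71.5% in longitudinal 30 min, 42.9%, 76.0% and 34.2% in transverse 30 min and 36.3%, 34.6% and 39.8% in control cultures. Rcan1 was thus the most abundant of the 3 in every longitudinal 4 h culture, and Rcan2 in every control culture.

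Among the calcineurin subunits, the regulatory subunit gene was the one with the most stable call. Ppp3r1 (chromosome 11, 17059301 to 17100383), which encodes the calcium-binding B subunit, had 60.3, 57.0 and 65.9 FPKM in longitudinal 4 h cultures, against 43.3, 40.02 and 42.6 FPKM in control cultures. All longitudinal 4 h values lay above all values of the other 4 groups, the highest of which was 52.3 FPKM in transverse 30 min B. Ppp3r1 rose by 0.53 ± 0.10 on the log2 scale against control (limma adjusted p 0.00659), and this call held when each of the 15 libraries was left out in turn. The authors' deposited table lists a q-value of 0.0585 there, which is not under 0.05. Ppp3r1 levels were 47.8, 50.7 and 43.9 FPKM in transverse 4 h cultures, 49.7, 44.5 and 51.9 FPKM in longitudinal 30 min cultures and 45.1, 52.3 and 39.5 FPKM in transverse 30 min cultures. The differences from control in those groups were 0.17, 0.21 and 0.11, with adjusted p of 0.565, 0.560 and 1. Longitudinal minus transverse at 4 h was 0.36 ± 0.10 with an adjusted p of 0.109, and longitudinal 4 h minus 30 min was 0.32 ± 0.10 with an adjusted p of 0.0729. The difference from 30 min passed without transverse 30 min B or without transverse 30 min C, the lowest adjusted p being 0.0364.

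The catalytic subunit genes stayed within narrow ranges. Ppp3cb (chromosome 14, 21318536 to 21437576), the beta form of the A subunit, had 19.3, 20.03 and 18.5 FPKM in longitudinal 4 h cultures, against 17.1, 17.1 and 16.9 FPKM in control cultures. It rose without overlap by 0.17 ± 0.04 on the log2 scale (limma adjusted p 0.0236). Leaving out control B or C, or longitudinal 4 h A or B, ended that call, with adjusted p up to 0.0737. Its locus overlaps 1810062O18Rik and Usp54 in the table and the libraries carry no strand, so its values are uncertain. Ppp3ca (chromosome 3, 136333734 to 136598743), the alpha form, had 29.7, 30.9 and 26.7 FPKM in longitudinal 4 h, 33.8, 30.7 and 33.9 FPKM in transverse 4 h and 26.5, 28.95 and 27.4 FPKM in control cultures. Only its transverse 4 h values lay clear of control, with a log2 difference of 0.24 ± 0.08 and an adjusted p of 0.344. Ppp3cc, the gamma form, had 10.6, 10.1 and 12.8 FPKM in longitudinal 4 h and 10.6, 8.84 and 10.2 FPKM in control cultures, with an adjusted p of 0.351.

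Set against the summed FPKM of Ppp3ca, Ppp3cb and Ppp3cc, Rcan1 gave ratios of 2.66, 2.40 and 3.86 in longitudinal 4 h and 1.18, 1.78 and 0.745 in transverse 4 h cultures. The ratios were 1.62, 1.15 and 4.19 in longitudinal 30 min, 0.960, 5.26 and 0.651 in transverse 30 min and 0.932, 0.667 and 0.973 in control cultures. Rcan1 alone thus exceeded the summed catalytic transcripts in every longitudinal culture and in no control culture. The summed Rcan1, Rcan2 and Rcan3 FPKM exceeded the catalytic sum in all 15 libraries, with ratios of 4.32, 3.82 and 5.56 in longitudinal 4 h and 2.57, 1.93 and 2.44 in control cultures. For Ppp3r1 the same ratio was 1.03 ± 0.10 in longitudinal 4 h, 0.792 ± 0.066 in transverse 4 h and 0.770 ± 0.036 in control cultures (SD, n = 3 each). The catalytic sum itself was 59.6 ± 1.53 FPKM in longitudinal 4 h, 59.9 ± 1.21 FPKM in transverse 4 h and 54.5 ± 0.33 FPKM in control cultures. These are ratios of transcript levels and say nothing of the proteins.

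**Figure D2:**
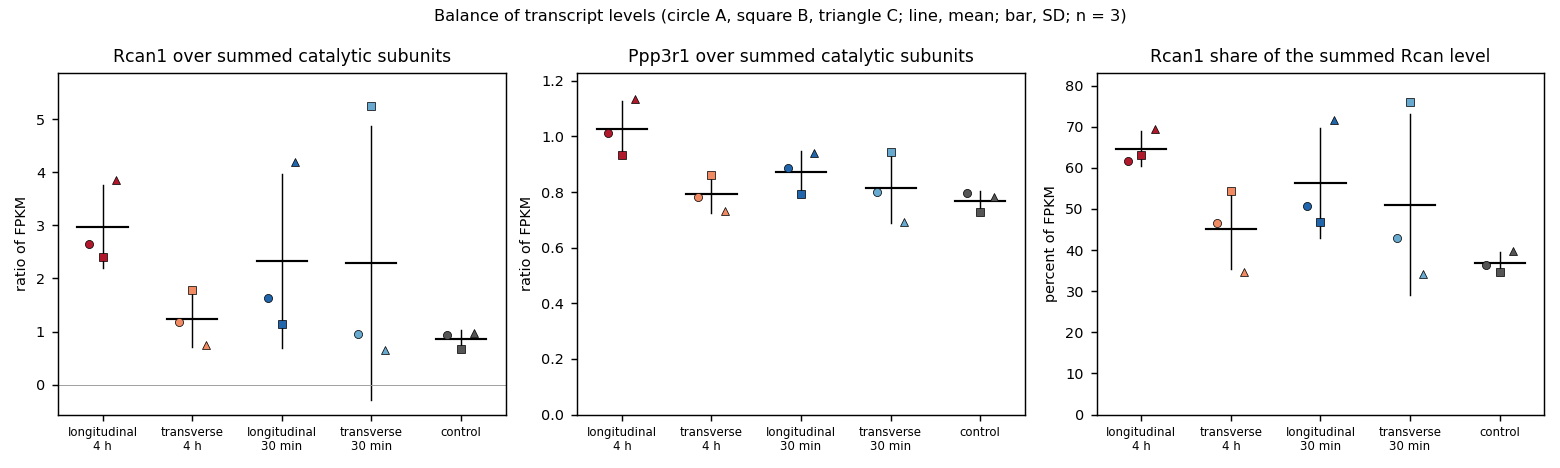
Ratio of Rcan1 FPKM to the summed FPKM of the catalytic subunit genes (left), the same ratio for Ppp3r1 (middle) and the percent of the summed Rcan FPKM that was Rcan1 (right) in the 5 groups, with 1 point per library, a line at the mean and a bar for the SD of 3 libraries. The Rcan1 ratio was 2.40 or more in all longitudinal 4 h libraries and under 1 in all control libraries.

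Of the NFAT factors, which calcineurin dephosphorylates, only Nfatc1 was called. Nfatc1 (chromosome 18, 80802944 to 80909810) had 6.07, 7.09 and 7.70 FPKM in longitudinal 4 h cultures and 7.82, 6.01 and 6.46 FPKM in longitudinal 30 min cultures, against 5.74, 5.78 and 4.70 FPKM in control cultures. Every longitudinal culture lay above every control culture. It rose at longitudinal 4 h by 0.31 ± 0.10 on the log2 scale, with a limma adjusted p of 0.0485 that was lost in 10 of the 15 fits without 1 library, where it reached 0.171: those without any control or transverse 4 h library, transverse 30 min A, longitudinal 30 min C, or longitudinal 4 h B or C. At longitudinal 30 min the difference was 0.27 ± 0.10 with an adjusted p of 0.486. In transverse cultures Nfatc1 had 5.13, 5.53 and 5.35 FPKM at 4 h and 5.96, 5.89 and 5.11 FPKM at 30 min, which overlapped control. Longitudinal minus transverse at 4 h was 0.32 ± 0.10, with no overlap and an adjusted p of 0.116.

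Nfatc2 (chromosome 2, 168301910 to 168427155) had 8.22, 5.45 and 11.1 FPKM in longitudinal 4 h cultures, against 5.52, 3.62 and 4.08 FPKM in control cultures. The lowest longitudinal 4 h culture lay just under the highest control culture. The log2 difference was 0.75 ± 0.26, with an interval of 0.18 to 1.32 and a limma adjusted p of 0.0607. It passed without transverse 30 min B, where Nfatc2 stood at 9.27 FPKM, or without longitudinal 4 h B, with adjusted p as low as 0.0272, and the authors' deposited table lists a q-value of 0.00308. Against transverse 4 h cultures, at 3.95, 4.88 and 4.98 FPKM, the longitudinal 4 h groups did not overlap, with a log2 difference of 0.68 ± 0.26 and an adjusted p of 0.148.

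Nfatc4 (chromosome 14, 56443632 to 56452780) had lower values at 4 h on both axes. It had 4.75, 6.41 and 4.47 FPKM in longitudinal 4 h and 5.77, 5.34 and 5.07 FPKM in transverse 4 h cultures, against 6.44, 9.19 and 6.23 FPKM in control cultures. Transverse 4 h values all lay below control, while longitudinal 4 h B overlapped it. The log2 differences were -0.41 ± 0.15 with an adjusted p of 0.0611 for longitudinal and -0.36 ± 0.15 with an adjusted p of 0.429 for transverse stretch. The longitudinal difference passed without transverse 30 min B or without longitudinal 4 h B, at as low as 0.0269. At 30 min it had 7.94, 8.15 and 6.92 FPKM in longitudinal cultures, and longitudinal 4 h minus 30 min was -0.49 ± 0.15 with an adjusted p of 0.0690, a difference that passed without control B or without longitudinal 4 h B, at as low as 0.0351. Nfatc3 (chromosome 8, 108583503 to 108654437) kept to between 7.99 and 9.26 FPKM in all 15 libraries, with 8.70, 8.69 and 8.71 FPKM in longitudinal 4 h and 7.99, 9.26 and 8.39 FPKM in control cultures. Its interval for longitudinal 4 h minus control was -0.10 to 0.15 on the log2 scale.

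**Figure D3:**
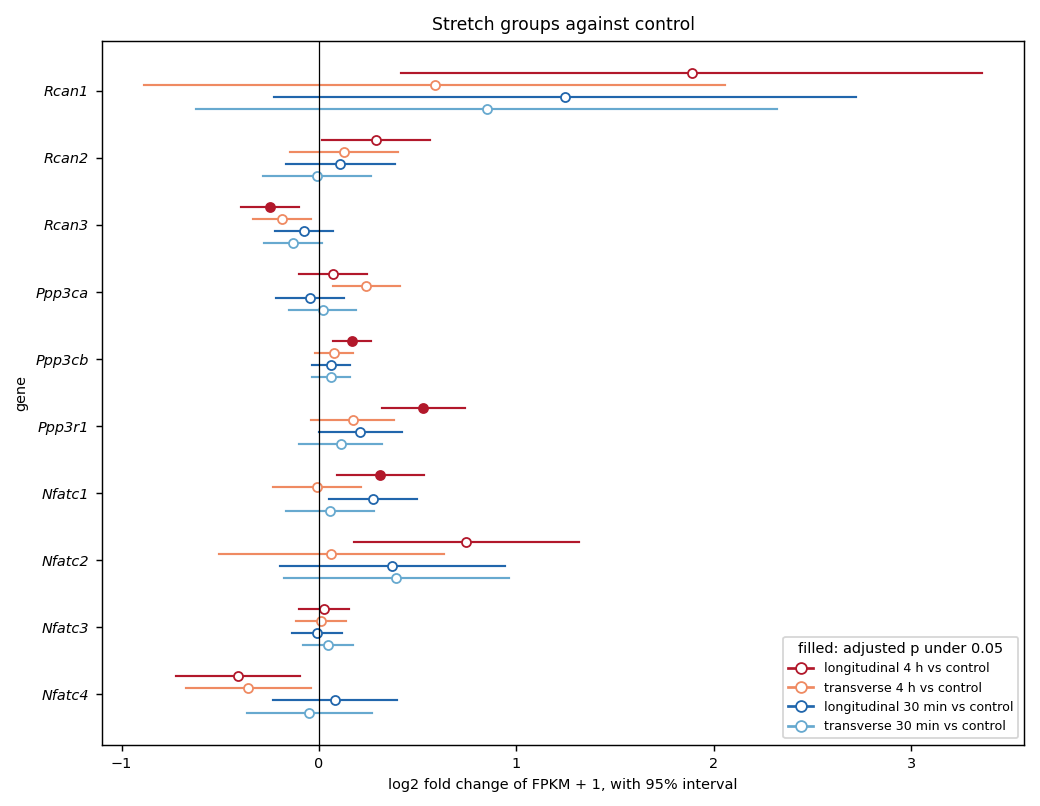
Log2 fold change of FPKM + 1 (horizontal axis) of the 10 genes (vertical axis) in each stretch group against control, with 95% intervals and filled points where the adjusted p was under 0.05. The 4 filled points, all at longitudinal 4 h, are Rcan3 on the lower side and Ppp3cb, Ppp3r1 and Nfatc1 on the higher side, while the widest interval at longitudinal 4 h, from 0.41 to 3.36, belongs to Rcan1.

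Over all 10 genes, 4 were called at longitudinal 4 h against control, 3 higher and 1 lower. In that comparison 20.7% of the 12114 genes tested were called, 10.3% higher and 10.4% lower. The members' median log2 fold change was 0.23, against -0.01 for all genes tested. For the 4 called members the authors' deposited table lists q-values of 0.0585 (Ppp3r1), 0.460 (Nfatc1), 0.535 (Rcan3) and 0.872 (Ppp3cb). None of these was under 0.05, as 5.82% of all genes in that table were. The limma count rested on single libraries: it was 1 without control B or without control C, 2 without longitudinal 4 h A or without longitudinal 4 h C, and 7 without transverse 30 min B. It was 2, Rcan1 and Ppp3r1, in the fit of those 2 groups alone, where the adjusted p of Rcan3, Ppp3cb and Nfatc1 was 0.0815, 0.0893 and 0.0833. The share of all genes called was not worked out for these other fits, so their counts are no result about the members. None was called at transverse 4 h (0.0578% of all genes tested), at longitudinal 30 min (0.446%) or at transverse 30 min (0.314%). None was called for longitudinal against transverse at 4 h (0.0165%) or at 30 min (0.0248%), for 4 h against 30 min of longitudinal (4.98%) or transverse stretch (0.338%), or for the interaction (0.0248%). At an unadjusted p under 0.05 the limma counts over all genes in those 8 comparisons ran from 493 to 3109. The 4 stretch groups share the same 3 control libraries.

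Genes of the pathway around the members were read from lists of 62 symbols, of which 56 were in the table and 52 were tested. At longitudinal 4 h, 9 of the 52 rose and 4 fell, with a median log2 fold change of 0.03 against -0.01 for all genes. That was 13 of 52, near the 20.7% called among all genes tested (10.3% higher and 10.4% lower). None passed at transverse 4 h (0.0578% of all genes tested), 2 rose at longitudinal 30 min (0.446%) and 1 rose at transverse 30 min (0.314%).

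Upstream of calcineurin, Calm2, a calmodulin gene, had 169, 192 and 169 FPKM in longitudinal 4 h cultures, against 134, 129 and 128 FPKM in control cultures, with no overlap, and rose by 0.44 ± 0.10 on the log2 scale (limma adjusted p 0.0116, but 0.0518 after quantile normalization). Calm3, which also encodes calmodulin, was not called, at -0.11. Of 6 calcium entry channel genes tested, Trpc1, a cation channel, rose by 0.36 and Orai1, the pore of store-operated entry, fell by 0.52 on the log2 scale (limma adjusted p 0.0137 and 0.0377). Of all genes tested, 10.3% were called higher and 10.4% lower at longitudinal 4 h. The Trpc1 call was lost without control B or C, at up to 0.0559, and that of Orai1 when control B, control C or any longitudinal 4 h library was left out, at up to 0.140. The T-type channel gene Cacna1h had 2.47, 2.62 and 1.76 FPKM in longitudinal 4 h and 4.25, 8.78 and 6.36 FPKM in control cultures, with no overlap and an adjusted p of 0.0787.

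Of 10 other genes for inhibitors, anchors and binding proteins of calcineurin that were tested, 2 rose at longitudinal 4 h. There 10.3% of all genes tested were called higher. Lmcd1, a LIM protein known in mice to promote calcineurin signalling in the heart, had 50.2, 30.6 and 129 FPKM in longitudinal 4 h cultures, against 13.5, 7.33 and 10.2 FPKM in control cultures. It rose by 2.43 ± 0.76 on the log2 scale (limma adjusted p 0.0436), and its transverse 30 min values of 8.57, 57.6 and 6.52 FPKM were high in device B, as for Rcan1. The Lmcd1 call was lost in 9 of the 15 fits without 1 library, at up to 0.152: those without any control or transverse 4 h library, longitudinal 30 min A, or longitudinal 4 h A or C. Homer2, a scaffold protein that binds NFAT in competition with calcineurin, rose by 0.57 ± 0.14 (adjusted p 0.0176), which did not hold without longitudinal 4 h A, longitudinal 4 h C, control B or control C, at up to 0.0739.

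Of 12 genes for kinases that phosphorylate NFAT, which keeps it out of the nucleus, 3 rose and 2 fell at longitudinal 4 h, where 10.3% of all genes tested were higher and 10.4% lower. Dyrk1a had 17.2, 14.7 and 21.7 FPKM in longitudinal 4 h cultures, against 13.1, 12.5 and 13.4 FPKM in control cultures, and rose by 0.41 ± 0.11 on the log2 scale (limma adjusted p 0.0209). Gsk3b rose by 0.31 and Csnk1e by 0.23, where the adjusted p was 0.0300 and 0.0459. Dyrk1b, the near relative of Dyrk1a, fell by 0.55, and Prkaca, a catalytic subunit of protein kinase A, fell by 0.32, the adjusted p being 0.0185 and 0.0179. The calls in this list ran in both directions. Leaving out control B or C or longitudinal 4 h C ended the calls of Dyrk1a and Dyrk1b, at up to 0.0768 and 0.0766, and leaving out control C or longitudinal 4 h C ended that of Prkaca, at up to 0.0752. The Gsk3b call did not hold without longitudinal 4 h C, longitudinal 4 h A, control C or control B, at up to 0.118, and that of Csnk1e held in only 2 of the 15 such fits, those without transverse 30 min B or longitudinal 4 h B. Fitting only the longitudinal 4 h and control libraries also ended the calls of Dyrk1a, Gsk3b and Csnk1e, at 0.0665, 0.0759 and 0.140, and quantile normalization ended that of Csnk1e, at 0.104. Among 9 other calcineurin substrates, Tfeb, a factor of lysosomal genes, fell by 0.30 (adjusted p 0.0126, but 0.0552 without control B), and the other 8 were not called. Nfat5, the NFAT relative that does not bind calcineurin, was at 0.13 with an adjusted p of 0.168.

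Of 10 tested partner and target genes of NFAT, Ptgs2 and Myc rose at longitudinal 4 h and at longitudinal 30 min. Of all genes tested, 10.3% were called higher at longitudinal 4 h, and 0.446% were called at longitudinal 30 min. Ptgs2, the inducible cyclooxygenase, had 4.65, 5.56 and 11.5 FPKM in longitudinal 4 h, 1.18, 1.78 and 0.852 FPKM in transverse 4 h, 10.9, 12.1 and 12.4 FPKM in longitudinal 30 min, 9.46, 12.2 and 3.88 FPKM in transverse 30 min and 1.04, 0.835 and 0.993 FPKM in control cultures. All groups but transverse 4 h lay above control, by 1.99 ± 0.34 at longitudinal 4 h, 2.71 ± 0.34 at longitudinal 30 min and 2.17 ± 0.34 at transverse 30 min on the log2 scale (limma adjusted p 0.00570, 0.00137 and 0.0131). The transverse 30 min call was lost without any control library or without transverse 30 min A or B, at up to 0.0924. It was also lost when only the transverse 30 min and control libraries were fitted, at 0.200, and without both transverse 30 min B and longitudinal 30 min C, at 0.0955. Myc, a growth factor-responsive transcription factor, rose by 1.08 at longitudinal 4 h and by 1.35 at longitudinal 30 min (adjusted p 0.00803 and 0.00914), and the 30 min call was lost without control B or longitudinal 30 min C, at up to 0.0663. Edn1, the endothelin-1 gene, was not called at longitudinal 4 h, at 0.81 with an adjusted p of 0.0639.

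The genes whose levels followed Rcan1 most closely over the 15 libraries were Clic5, Hbegf, Inhba, Cdr2, Cttnbp2nl, Nuak1, Smad2 and Fbxw11. They are the 8 with the highest Pearson r on log2(FPKM + 1) among 8235 genes with a mean of at least 5 FPKM, with r from 0.966 to 0.980. Of those genes 243 had an r over 0.9, and all share the depth and composition of each library. The 8 were picked from these same values. Their high libraries and their differences at longitudinal 4 h partly follow from that choice and are no separate result. Hbegf, a ligand of the EGF receptor, had 100.2, 72.4 and 160 FPKM in longitudinal 4 h, 21.02, 119.6 and 14.4 FPKM in transverse 30 min and 27.7, 10.1 and 21.8 FPKM in control cultures. Its 3 highest libraries, longitudinal 4 h C, longitudinal 30 min C and transverse 30 min B, were also the 3 highest of Rcan1, in another order. Clic5, a chloride intracellular channel protein gene, had the highest Pearson r, with a Spearman rho of 0.957. At longitudinal 4 h against control, Hbegf rose by 2.46, Nuak1, a kinase gene, by 1.36 and Cdr2 by 1.05 on the log2 scale (limma adjusted p 0.0399, 0.0412 and 0.0325). These calls were lost in 6, 7 and 4 of the 15 fits without 1 library, control B, control C, longitudinal 4 h A and longitudinal 4 h C in each case, with adjusted p up to 0.140. The others were without longitudinal 30 min A or transverse 4 h A for Hbegf and Nuak1, and without transverse 30 min A for Nuak1. Clic5 at 1.41 and Inhba, a subunit of activin, at 1.98 did not pass, at 0.0611 and 0.0651, though both did without transverse 30 min B or C, at as low as 0.0133 for Clic5 and 0.0150 for Inhba, and Clic5 also did without longitudinal 30 min C. Fitting only the longitudinal 4 h and control libraries gave 0.0179 for Clic5 and 0.0228 for Inhba.

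**Figure D4:**
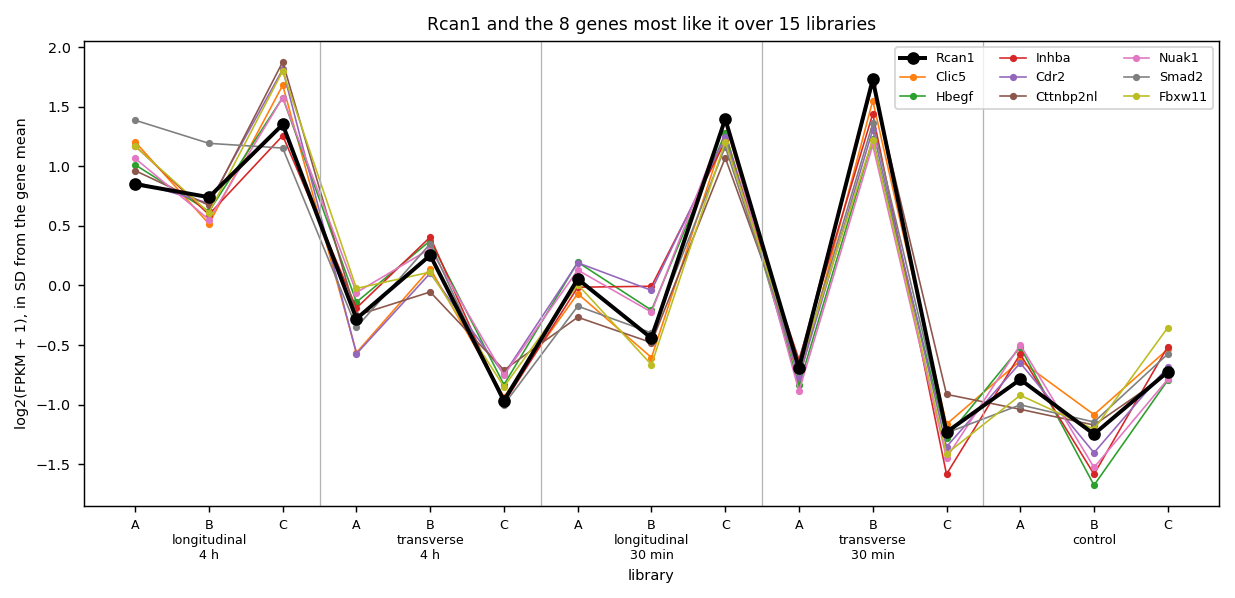
Log2(FPKM + 1) of Rcan1 (black) and of the 8 genes most like it, each in SD from its own mean (vertical axis), in the 15 libraries (horizontal axis). All 9 lines lie high in longitudinal 30 min C and transverse 30 min B as well as in the longitudinal 4 h libraries.

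Among the members, Ppp3r1 followed Rcan1 most closely over the 15 libraries, with r = 0.871, then Nfatc2 with 0.851 and Rcan2 with 0.788. Nfatc3 at -0.22, Rcan3 at -0.41, Ppp3ca at -0.46 and Nfatc4 at -0.47 were on the negative side. After each group's mean was taken off, r with Rcan1 was 0.910 for Ppp3r1, 0.772 for Nfatc2 and -0.881 for Ppp3ca, so these relations lay within groups as well. They are descriptions over libraries that differ together in depth, and no test was made of them.

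**Figure D5:**
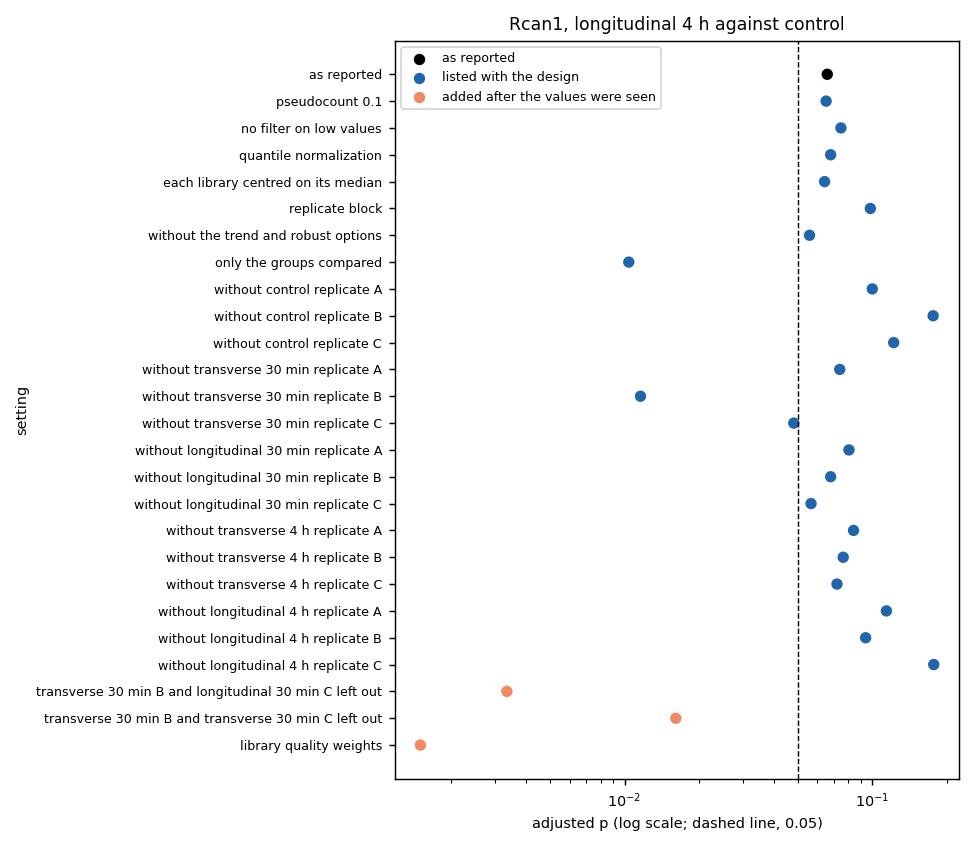
Adjusted p of Rcan1 for longitudinal 4 h against control (horizontal axis, log scale) under each setting (vertical axis), in black as reported, in blue for the settings listed with the design and in orange for those added after the values were seen. The reported 0.0658 lies above the dashed line at 0.05, with 3 of 22 listed and 3 of 3 added settings below it.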

How the data were processed

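Poly(A) libraries (TruSeq RNA v2, which does not mark strand, per the labels' protocols) were made from 15 cultures. Per the submitters' processing notes, build mm9 was used with TopHat 1.4.1, Cufflinks 2.0.2 and FastQC. The authors deposited 1 table with an FPKM value per gene and library, per the file headers. The authors' own log2 fold changes, p-values and q-values of each stretch group against control stand beside them. Without read counts the absolute depth is unknown. Relative depth was read from the steps between low FPKM values. Table starts count from 0, so 1 was added.

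Limma 3.58.1 (R 4.3.3) was fitted once to log2(FPKM + 1) of all 15 libraries, as 5 group means with 10 residual degrees of freedom and the trend and robust options. It covered the 12114 of 13657 genes that reached 1 FPKM in 3 or more libraries. Two-sided p-values were adjusted by the Benjamini-Hochberg method across those genes, comparison by comparison, and called under 0.05. The fit was tested on simulated data. Fold changes on this scale understate those of low genes. Python 3.11.15 was used for the rest, and promoter sequences came from RefSeq, in which 8 of the 10 members were matched (not Ppp3ca or Nfatc1). The members, lists and alternatives were chosen with earlier results of these data known. Named beside the members were the genes of smallest p or called in each list, up to 6 a list, though not all are printed, and the 8 genes most like Rcan1. Of the listed pathway genes, 1 result is not reported here.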

Additional observations from a re-analysis of the deposited data

How the results depend on the processing

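Rcan1 at longitudinal 4 h against control kept a log2 fold change of 1.89 and passed the threshold when only the groups compared were fitted, when transverse 30 min B was left out with either longitudinal 30 min C or transverse 30 min C, and, at 1.65, with library quality weights, whose estimate did not converge. Without 1 library it ran from 1.70 to 2.01. Against transverse 4 h, at 1.30, it passed without transverse 30 min B and longitudinal 30 min C (adjusted p 0.0457). These 3 settings, the 2 pairs and the weights, were added after the values were seen, and the first pair was picked when both libraries were known to be high in Rcan1. The same pair out turned transverse 30 min against control to -0.042, the lowest without 1 library, where the highest was 1.43. Transverse 4 h against 30 min turned to 0.63 without that pair, 0.36 without transverse 30 min B and C and 0.46 with weights, and ran from -0.84 to 0.63 without 1 library. Longitudinal against transverse at 30 min ran from -0.18 to 1.29. Without 1 library, longitudinal 30 min against control ran from 0.721 to 1.635. Longitudinal 4 h against 30 min ran from 0.25 to 1.17, and the interaction of axis and duration from 0.012 to 1.48. The cause was not tested.

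Of the 10 members, 4 were called at longitudinal 4 h against control, 2 when only the groups compared were fitted, 8 with weights and from 1 to 7 without 1 library. With weights, 3 were called at transverse 30 min, 1 at longitudinal 30 min and 2 at transverse 4 h against control, 2 for longitudinal against transverse at 4 h, and 3 for 4 h against 30 min on each axis, where the count as reported was 0. Without transverse 30 min B and longitudinal 30 min C, 2 were called for longitudinal against transverse at 4 h. For longitudinal 4 h against 30 min, 1 was called after quantile normalization and without either pair, and 0 or 1 without 1 library. The share of all genes called was worked out only for the fit as reported. Counts of members under other settings therefore cannot be set against it and are no result about the members.

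Small differences that were not called in the fit as reported changed sign. At transverse 30 min against control, Ppp3ca was at -0.0046 after quantile normalization and ran from -0.041 to 0.086 without 1 library, Rcan2 from -0.14 to 0.084, Nfatc1 from -0.025 to 0.12 and Nfatc4 from -0.14 to 0.11. Nfatc4 was at 0.053 without the first pair, 0.13 without the second and 0.24 with weights, where it was called (limma adjusted p 0.0431). At longitudinal 30 min, Ppp3ca (-0.084 to 0.011) and Nfatc3 (-0.054 to 0.041) were at 0.011 and 0.017 without the first pair, Nfatc3 was at 0.015 with weights, and Nfatc4 ran from -0.0090 to 0.24. At transverse 4 h, Nfatc1 (-0.094 to 0.032) was at 0.012 after quantile normalization and 0.10 with weights, Nfatc2 ran from -0.044 to 0.21, and Nfatc3 (-0.039 to 0.062) was at -0.0042 with weights. At longitudinal 4 h, Nfatc3 ran from -0.017 to 0.078.

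Over 30 same-letter pairs the correlation of deviations ran from -0.50 to 0.51, with 9 over 0.1. No range was worked out for unlike letters, so this cannot settle whether the letters mark pairs. The closest match in another group had the same letter for replicates B and C of control, transverse 4 h and longitudinal 4 h. The same held for transverse 30 min C, but for no other library. The labels do not say that the letters mark a shared litter or day, so the main fit was unpaired. With the replicate block the adjusted p of Rcan1 at longitudinal 4 h was 0.0982 (log2 fold change 1.89), and 3 of the 10 members were called, Nfatc1 no longer (0.0773). The block also ended the calls of Orai1, Lmcd1, Gsk3b, Csnk1e, Ptgs2 at transverse 30 min, Hbegf, Cdr2, Cttnbp2nl, Nuak1 and Fbxw11. Nfatc1 at longitudinal 4 h had an adjusted p of 0.0518 without the filter on low values and 0.0517 without the first pair, and Csnk1e was also lost without either pair, at up to 0.0557. Depth was known only relative to other libraries, so no counting error is given, and 3 libraries a group limit the precision of every value.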
